A study of Mus musculus with 2 samples.

Results

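Chaperones bind unfolded or partly folded proteins and keep them from clumping until they fold, cross a membrane or are degraded. The 10 genes described here are *Hspa1a*, *Hspa1b*, *Hspa8*, *Dnajb1*, *Hsph1*, *Hsp90aa1*, *Hsp90ab1*, *Hspa5*, *Hspe1* and *Hspd1*. They were taken by symbol, and each matched 1 of the 55386 features of both libraries. HSP70 proteins hold short hydrophobic stretches of a client in a cycle driven by ATP. J-proteins such as the product of *Dnajb1* deliver clients and start ATP hydrolysis, and HSP110 proteins such as that of *Hsph1* release the spent nucleotide. Some clients pass on to HSP90, which holds kinases and steroid receptors near their active shape. The product of *Hspa5*, BiP, does the work of HSP70 in the endoplasmic reticulum, and those of *Hspd1* and *Hspe1* form the folding chamber of mitochondria and its lid. Under proteotoxic stress, heat shock factor 1 raises the inducible members, among them *Hspa1a*, *Hspa1b*, *Dnajb1* and *Hsph1*. *Hspa8* and *Hsp90ab1* are made in unstressed cells, and *Hspa5* is a target of the unfolded protein response.

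The study compared CD45+ cells of the aortic adventitia, the outer coat of the vessel, at steady state and during inflammation caused by angiotensin II (AngII). All animals were RankCreRosa26eYFP mice about 16 weeks old, in which Cre made from the *Rank* locus turns on eYFP in descendants of early erythro-myeloid progenitors. The steady state library pooled 3 untreated animals, and the AngII library pooled 2 animals given 1.8 µg/kg/min of AngII by osmotic pump for 10 days. Cells were enriched on CD45 beads, sorted as live cells and profiled as 3′ droplet libraries, so each value is a count of unique molecular identifiers (UMIs). There was 1 library per condition and no replicate, so no p-value is given, and all intervals are 95% intervals that cover counting error only. Animals, sort and treatment cannot be told apart in a difference between the libraries.

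The steady state library held 346 barcodes and 4009678 UMIs, and the AngII library 4419 barcodes and 20481854 UMIs. The libraries shared 0 barcodes. After the study's cell filter (300 to 6500 genes and at most 5% mitochondrial UMIs), 306 and 4198 cells were kept. Their median depth was 9105 UMIs at steady state and 1092 UMIs on AngII. Of the kept cells, 3 (0.980%) at steady state and 1910 (45.5%) on AngII held fewer than 1000 UMIs. A level below is the sum of a gene's UMIs over the cells of a class, over all UMIs of that class, scaled as CPM, so that deep cells weigh more than shallow ones. Levels are not scaled by transcript length, so they were not compared between genes.

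Cells were assigned to classes by marker genes that hold none of the 10 chaperones. The classes with at least 20 cells at steady state and on AngII were resident macrophages marked by *Lyve1* and *Folr2* (89 and 424 cells), type-2 macrophages marked by *Ear2* and *Retnla* (20 and 83), T cells (30 and 264) and B cells (47 and 84). A further class of 30 and 1057 cells was gated on general macrophage genes such as *C1qa* and *Adgre1* and is called other macrophages. On AngII alone, 7 more classes reached 20 cells, which were reparative macrophages, with *Spp1* among their markers (139 cells), classical monocytes (715), nonclassical monocytes (52), type-1 (281), type-2 (146) and migratory dendritic cells (26), and neutrophils (104). This gave 17 pairs of class and library large enough to compare. Cells were gated on these same markers, so markers among the leading genes of a class are no independent check of it. In 16 of the 17 pairs the 10 leading genes against the rest of the library held markers of the class itself. The exception was the other macrophages at steady state, whose 10 leading genes, with *Cxcl9* and *Ccl4* among them, included 0 of their markers. In that class 14 of 30 cells scored near a second class, that is at 0.8 or more of the winning score, against 24 of 89 resident macrophages and 0 of the T and B cells. No doublet caller was run. Cells with strong markers of more than 1 lineage were set aside as mixed (22 and 529 cells), as were cells without enough markers (1 and 273). No kept cell was gated as fibroblast, smooth muscle, endothelium, red cell or platelet.

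The cytosolic HSP70 genes split by class. *Hspa8* (ENSMUSG00000015656.17, chromosome 9, 40800984 to 40810087, plus strand on GRCm38), the constitutive form, was read in every class of at least 20 cells. At steady state it stood at 1042 CPM in resident macrophages, 1067 in other macrophages, 1018 in type-2 macrophages, 867 in T cells and 529 in B cells. B cells were lowest, at 529 CPM (446 to 624), and the other 4 classes did not differ from their neighbours in the order beyond counting error. On AngII *Hspa8* stood at 1233 CPM in resident macrophages, 1488 in other macrophages, 1561 in type-2 macrophages, 1567 in reparative macrophages, 1875 in classical monocytes and 1374 in nonclassical monocytes. It stood at 2136 CPM in type-1 dendritic cells, 1523 in type-2 dendritic cells, 1012 in migratory dendritic cells, 398 in neutrophils, 1450.0 in T cells and 754 in B cells. Type-1 dendritic cells, which cross-present antigen, were highest at 2136 CPM (2070.4 to 2203), followed by classical monocytes, and neutrophils were lowest at 398 CPM (334 to 469.7). Of the 11 neighbouring pairs in this order, 5 had a ratio whose interval excluded 1. The pairs between reparative macrophages and resident macrophages, in the middle of the order, did not differ from neighbour to neighbour.

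*Hspa1a* (ENSMUSG00000091971.3, chromosome 17, 34969190 to 34972156, minus strand) and *Hspa1b* (ENSMUSG00000090877.3, chromosome 17, 34956436 to 34959238, minus strand) encode the stress-inducible HSP70. At steady state *Hspa1a* stood at 208 CPM (161 to 264) in other macrophages, 90.9 CPM (72.9 to 112) in resident macrophages and 55.3 CPM (37.3 to 78.9) in type-2 macrophages, and the ratios between these neighbours excluded 1. It was not detected in the 77 B and T cells together, where the interval of a count of 0 reaches 7.29 CPM. The 3 macrophage classes pooled stood at 101 CPM (86.9 to 117). On AngII 4 UMIs were found in 348 B and T cells, or 2.74 CPM (0.747 to 7.02), against 38.0 CPM (33.4 to 43.2) in the same 3 macrophage classes. *Hspa1a* was thus higher in these 3 macrophage classes than in B and T cells in both libraries. *Hspa1b* pooled in the same way had intervals of 17.4 to 32.2 CPM (44 UMIs) in the macrophage classes and 1.22 to 17.3 CPM (3 UMIs) in B and T cells at steady state. On AngII they were 17.6 to 24.9 CPM (132 UMIs) and 7.84 to 20.3 CPM (19 UMIs), which overlap. For comparison, *C1qa*, a macrophage gene, gave a UMI in 13.3% of T cells and 6.38% of B cells at steady state and in 26.1% and 20.2% on AngII. *Ighm*, a B cell gene, gave a UMI in 83.1% of resident macrophages at steady state and 21.5% on AngII. The source of these UMIs, be it free RNA, doublets or misassigned cells, was not tested.

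On AngII *Hspa1a* stood at 53.9 CPM in resident macrophages, 34.1 in other macrophages, 30.6 in type-2 macrophages, 14.3 in reparative macrophages, 32.3 in classical monocytes and 44.0 in nonclassical monocytes. It stood at 13.3 CPM in type-1 dendritic cells, 25.0 in type-2 dendritic cells, 4.40 in migratory dendritic cells, 5.72 in neutrophils, 2.64 in T cells and 3.1 in B cells. Resident macrophages led and T cells came last at 2.64 CPM (0.545 to 7.72), yet 0 of 11 neighbouring pairs differed beyond counting error. *Hspa1b* at steady state stood at 23.8 CPM in resident macrophages, 40.3 in other macrophages, 14.7 in type-2 macrophages, 8.42 in T cells and 3.73 in B cells, with 0 of 4 neighbouring pairs apart. AngII cells held it at 34.5 CPM in resident macrophages, 18.3 in other macrophages, 9.57 in type-2 macrophages, 9.54 in reparative macrophages, 27.0 in classical monocytes and 70.4 in nonclassical monocytes. The other classes gave 20.7 CPM in type-1 dendritic cells, 33.8 in type-2 dendritic cells, 8.80 in migratory dendritic cells, 2.86 in neutrophils, 13.2 in T cells and 12.4 in B cells. Nonclassical monocytes were highest for *Hspa1b* at 70.4 CPM (40.3 to 114) and neutrophils lowest at 2.86 CPM (0.0725 to 15.9), and only the leading pair was apart. That first place rested on 1 cell, which held 12 of the 16 *Hspa1b* UMIs of nonclassical monocytes (75.0%). Type-1 dendritic cells on AngII likewise drew 20 of 25 *Hspa1a* UMIs (80.0%) and 29 of 39 *Hspa1b* UMIs (74.4%) from 1 cell each.

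The inducible HSP70 genes were the members most concentrated in few cells. At steady state the 5 cells with the most UMIs of a gene held 33.0% of *Hspa1a* and 56.6% of *Hspa1b*, against 16.9% of *Dnajb1* and 9.87% of *Hspa8*. On AngII the top 5 of 4198 cells still held 18.3% of *Hspa1a* and 22.9% of *Hspa1b*, against 4.41% of *Dnajb1* and 3.41% of *Hspa8*. Counting both genes, 23 cells with at least 5 UMIs held 73.8% of the 469 UMIs at steady state, and 34 such cells held 45.6% of the 849 UMIs on AngII. Both genes were read together in 30 cells at steady state, of 70 with *Hspa1a* and 51 with *Hspa1b*, and in 47 on AngII, of 204 and 191. The cells with the most were of several classes. At steady state they were a type-1 dendritic cell with 62 UMIs of the pair, a mixed cell with 61 and a nonclassical monocyte with 26. On AngII they were a classical monocyte with 50, a type-1 dendritic cell with 49 and an other macrophage with 29. The same 6 cells held 0 to 4 UMIs of *Dnajb1* and 0 to 3 of *Hsph1*, too few to say if these were raised. These cells were deep, with 13233 to 25272 UMIs, and the part of depth in their counts was not tested.

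**Figure D1:**
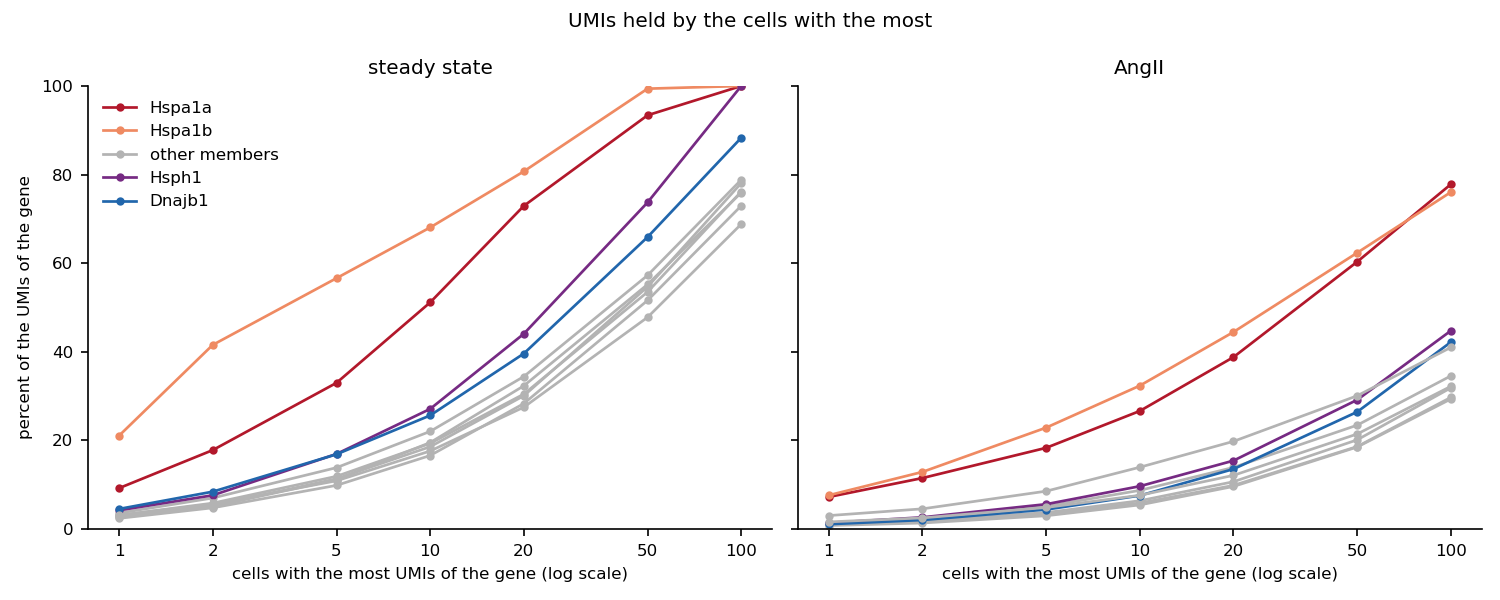
Percent of a gene's UMIs (y axis) held by the cells with the most UMIs of that gene (x axis, number of cells, log scale), at steady state (left) and on AngII (right), 1 line per gene. *Hspa1b* and *Hspa1a* lie highest up to 10 cells in both libraries, with 56.6% and 33.0% of their UMIs in 5 cells at steady state.

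*Dnajb1* (ENSMUSG00000005483.10, chromosome 8, 83608193 to 83612653, plus strand), whose product loads HSP70 with clients, was more even over the classes. At steady state it stood at 115 CPM in resident macrophages, 109 in other macrophages, 57.1 in type-2 macrophages, 92.6 in T cells and 74.6 in B cells. Resident macrophages were highest at 115 CPM (94.3 to 138) and type-2 macrophages lowest at 57.1 CPM (38.8 to 81.0), and 0 of 4 neighbouring pairs differed beyond counting error. Levels on AngII were 42.7 CPM in resident macrophages, 35.9 in other macrophages, 28.7 in type-2 macrophages, 25.0 in reparative macrophages, 36.1 in classical monocytes and 26.4 in nonclassical monocytes. Beyond macrophages and monocytes they were 28.1 CPM in type-1 dendritic cells, 27.4 in type-2 dendritic cells, 48.4 in migratory dendritic cells, 45.8 in neutrophils, 37.9 in T cells and 24.8 in B cells. The span from migratory dendritic cells, at 48.4 CPM (24.2 to 86.6), to B cells, at 24.8 CPM (10.7 to 48.9), was 1.95-fold, the narrowest of the 10 genes on AngII, and 0 of 11 neighbouring pairs were apart. All 12 AngII levels were below all 5 steady state levels, an ordering of levels across classes that does not by itself compare the same class.

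*Hsph1* (ENSMUSG00000029657.15, chromosome 5, 149614287 to 149636376, minus strand), the HSP110 that recharges HSP70, was read at 20.7 CPM in resident macrophages, 15.5 in other macrophages, 29.5 in type-2 macrophages, 58.9 in T cells and 48.5 in B cells at steady state. The AngII levels were 41.2 CPM in resident macrophages, 29.4 in other macrophages, 38.3 in type-2 macrophages, 53.6 in reparative macrophages, 35.5 in classical monocytes and 26.4 in nonclassical monocytes. They were 35.0 CPM in type-1 dendritic cells, 37.1 in type-2 dendritic cells, 8.80 in migratory dendritic cells, 8.59 in neutrophils, 58.1 in T cells and 34.1 in B cells. T cells were highest in both libraries, at 58.9 CPM (32.2 to 98.8) and 58.1 CPM (44.9 to 73.9), and neutrophils lowest on AngII at 8.59 CPM (1.77 to 25.1). No neighbouring pair was apart in either library, with 3 to 130 UMIs behind each level outside migratory dendritic cells, which held 2.

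Over all cells of a class, the HSP90 genes were highest in AngII T cells. AngII T cells without a UMI of *Mki67*, *Top2a* or *Dntt*, described further below, stood under migratory dendritic cells for both genes. *Hsp90ab1* (ENSMUSG00000023944.14, chromosome 17, 45567775 to 45573271, minus strand), the constitutive cytosolic HSP90, stood at steady state at 1174 CPM in resident macrophages, 1123 in other macrophages, 1295 in type-2 macrophages, 1195 in T cells and 1033 in B cells, a span of 1.25-fold with 0 of 4 neighbouring pairs apart. On AngII it stood at 1203 CPM in resident macrophages, 1237 in other macrophages, 1398 in type-2 macrophages, 1447 in reparative macrophages, 1187 in classical monocytes and 1453 in nonclassical monocytes. It stood at 1474 CPM in type-1 dendritic cells, 1432 in type-2 dendritic cells, 2186 in migratory dendritic cells, 243 in neutrophils, 2386 in T cells and 1079 in B cells. T cells, at 2386 CPM (2297 to 2477), and migratory dendritic cells, at 2186 CPM (1998 to 2387), did not differ from each other and were followed by type-1 dendritic cells 1.48-fold (1.35 to 1.63) lower. Neutrophils were lowest, 9.81-fold under T cells, at 243 CPM (194 to 301).

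*Hsp90aa1* (ENSMUSG00000021270.13, chromosome 12, 110690605 to 110702728, minus strand), the stress-inducible HSP90, stood at steady state at 275 CPM in resident macrophages, 233 in other macrophages, 355 in type-2 macrophages, 316 in T cells and 242 in B cells, again with 0 of 4 neighbouring pairs apart. Under AngII the levels were 345 CPM in resident macrophages, 313 in other macrophages, 454 in type-2 macrophages, 465 in reparative macrophages, 307 in classical monocytes and 352 in nonclassical monocytes. In the remaining classes they were 354 CPM in type-1 dendritic cells, 379 in type-2 dendritic cells, 567 in migratory dendritic cells, 212 in neutrophils, 755 in T cells and 220.2 in B cells. T cells, at 755 CPM (706 to 808), were 1.33-fold (1.11 to 1.61) above migratory dendritic cells, and neutrophils and B cells were lowest and did not differ from each other.

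In the endoplasmic reticulum, *Hspa5* (ENSMUSG00000026864.13, chromosome 2, 34771970 to 34777547, plus strand) was highest in macrophages and, on AngII, also in classical monocytes. At steady state it stood at 788 CPM in resident macrophages, 719.6 in other macrophages, 1127 in type-2 macrophages, 219 in T cells and 332 in B cells. Type-2 macrophages led at 1127 CPM (1039.6 to 1220.1), resident and other macrophages did not differ from each other, and T cells were lowest at 219 CPM (163 to 287), 5.15-fold under type-2 macrophages. On AngII it stood at 968 CPM in resident macrophages, 899 in other macrophages, 883 in type-2 macrophages, 929.7 in reparative macrophages, 949 in classical monocytes and 564 in nonclassical monocytes. Dendritic cells, neutrophils and lymphocytes followed, with 737 CPM in type-1 dendritic cells, 601 in type-2 dendritic cells, 176 in migratory dendritic cells, 361 in neutrophils, 435 in T cells and 400.1 in B cells. The 4 macrophage classes and classical monocytes lay between 883 and 968 CPM with no neighbouring pair apart, and migratory dendritic cells were lowest at 176 CPM (126 to 239.6). The single plasma cells of the libraries, secretory cells with a large endoplasmic reticulum, held 9 and 77 *Hspa5* UMIs, or 1237 CPM (566 to 2348) and 1410.3 CPM (1113 to 1763).

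The mitochondrial chaperonin genes were highest in AngII T cells. *Hspe1* (ENSMUSG00000073676.4, chromosome 1, 55088132 to 55091307, plus strand), the lid, stood at steady state at 148 CPM in resident macrophages, 121 in other macrophages, 206 in type-2 macrophages, 282 in T cells and 324 in B cells. Lymphocytes led, with B cells at 324 CPM (259.8 to 400.1) and other macrophages last at 121 CPM (86.0 to 165), though only the step from type-2 to resident macrophages was apart from neighbour to neighbour. With AngII the gene was read at 225 CPM in resident macrophages, 245 in other macrophages, 381 in type-2 macrophages, 268 in reparative macrophages, 247 in classical monocytes and 211 in nonclassical monocytes. Further levels were 376 CPM in type-1 dendritic cells, 268 in type-2 dendritic cells, 365 in migratory dendritic cells, 68.7 in neutrophils, 613 in T cells and 276 in B cells. T cells, at 613 CPM (568 to 660.0), were 1.61-fold (1.37 to 1.89) above type-2 macrophages, the next class. Neutrophils were lowest at 68.7 CPM (44.0 to 102), 3.08-fold (1.85 to 5.25) under nonclassical monocytes.

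*Hspd1* (ENSMUSG00000025980.14, chromosome 1, 55077835 to 55088243, minus strand), the chamber, was even at steady state, at 136 CPM in resident macrophages, 152 in other macrophages, 147 in type-2 macrophages, 194 in T cells and 153 in B cells, with 0 of 4 neighbouring pairs apart. On AngII it stood at 139 CPM in resident macrophages, 126 in other macrophages, 199 in type-2 macrophages, 132 in reparative macrophages, 121 in classical monocytes and 128 in nonclassical monocytes. Outside macrophages and monocytes it was at 134 CPM in type-1 dendritic cells, 95.1 in type-2 dendritic cells, 136 in migratory dendritic cells, 22.9 in neutrophils, 472 in T cells and 149 in B cells. T cells, at 472 CPM (433 to 514), were 2.37-fold (1.92 to 2.95) above the next class, type-2 macrophages, and neutrophils were lowest at 22.9 CPM (9.88 to 45.1), 4.15-fold (2.04 to 9.84) under the class above them. From type-2 dendritic cells to B cells the levels lay between 95.1 and 149 CPM.

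**Figure D2:**
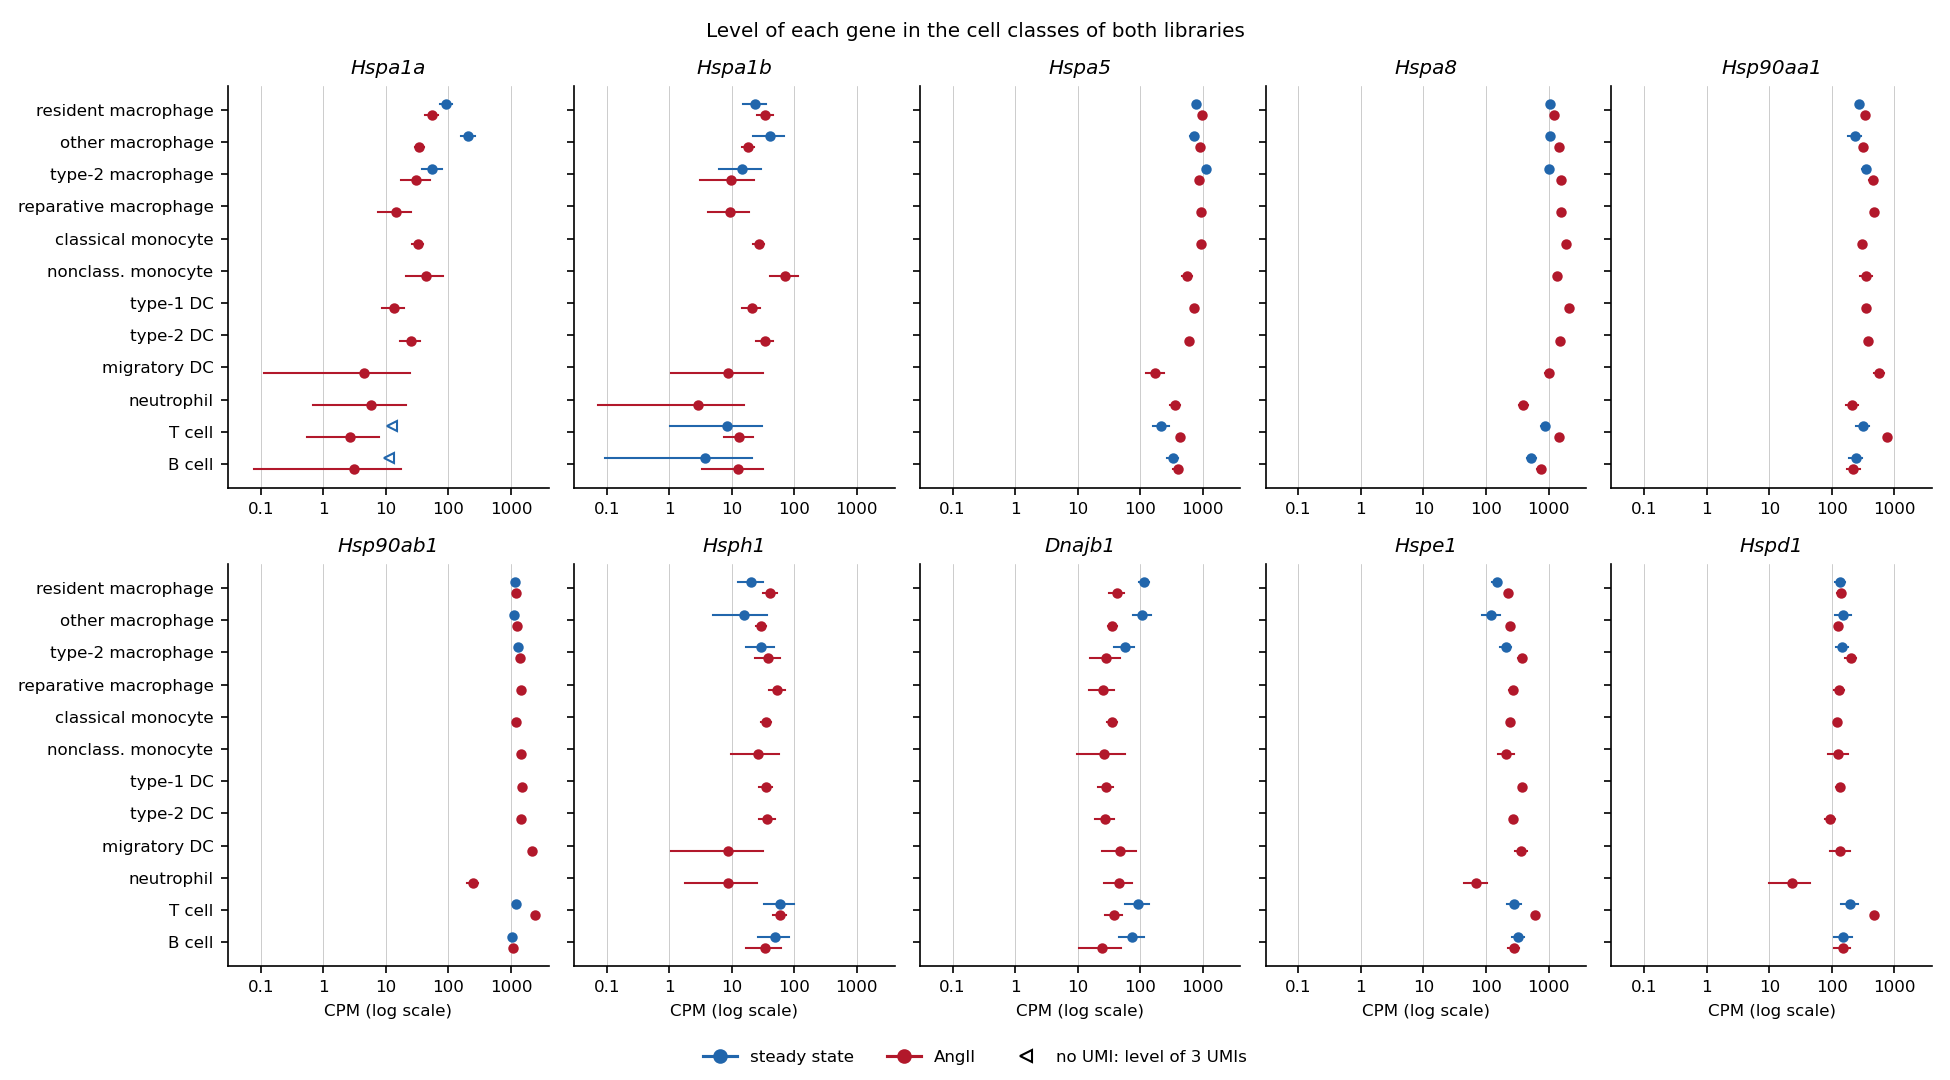
Level of each gene in CPM (x axis, log scale) in the cell classes with at least 20 cells (y axis) at steady state (blue) and on AngII (red). Points are CPM from summed UMIs with lines for exact Poisson 95% intervals, open triangles mark the level of 3 UMIs where no UMI was found, and T cells on AngII lie highest for *Hsp90aa1*, *Hsp90ab1*, *Hspe1* and *Hspd1*.

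Summed over the 10 genes, chaperone UMIs made up 3813 CPM in resident macrophages, 3787 CPM in other macrophages, 4306 CPM in type-2 macrophages, 3232 CPM in T cells and 2740 CPM in B cells at steady state. On AngII the sum ran from 1368 CPM (1248 to 1496) in neutrophils and 2953 CPM in B cells to 5309 CPM in type-1 dendritic cells and 6222 CPM (6078 to 6369) in T cells. At steady state the classes under 20 cells gave sums of 3357 CPM in 9 classical monocytes, 3660 CPM in 15 nonclassical monocytes, 4152 CPM in 12 type-1 dendritic cells and 4195 CPM in 11 type-2 dendritic cells. The remaining small classes of both libraries held 1 to 11 cells and ran from 687 CPM in 3 neutrophils to 6407 CPM in 2 migratory dendritic cells, both at steady state. *Hspa1a* stood at 121 CPM in the steady state type-1 dendritic cells and 104 CPM in the nonclassical monocytes, where 90.3% and 83.3% of its UMIs lay in 1 cell. *Dnajb1* stood at 44.1 CPM in classical monocytes, 104 CPM in nonclassical monocytes, 54.6 CPM in type-1 and 104 CPM in type-2 dendritic cells at steady state. These small classes were not compared.

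Between steady state and AngII, *Dnajb1* was the member with the most repeated difference over classes. It stood below 0.5 of its steady state level in 4 of the 5 classes with at least 20 cells in both libraries, and at 0.503 (0.252 to 0.960) in type-2 macrophages. In each of the 4 classes, 5.73% to 8.85% of all genes were below 0.5. The share of all genes below 0.5 in as many classes was not counted. The inducible HSP70 gene *Hspa1a* was called in other macrophages only, below 0.5. In T cells, *Hsp90aa1* and the mitochondrial chaperonin genes *Hspd1* and *Hspe1* were above 2-fold. *Hspa8*, *Hsp90ab1* and *Hspa5* lay within 2-fold in all 5 classes. Ratios are CPM on AngII over CPM at steady state with exact conditional binomial intervals, a gene is called when its ratio is past 2-fold either way, and genes with at least 20 UMIs in either library were counted. AngII cells were shallower in every class, with median UMIs of 9800 and 963.5 in resident macrophages, 9636.5 and 1092 in other macrophages, 27024.5 and 1158 in type-2 macrophages, 8022.5 and 1036 in T cells and 5561 and 4077.5 in B cells. To bring depth to 1 value, each cell with at least 1000 UMIs was thinned to 1000 UMIs at random 200 times, a step added after seeing the data. The median ratio over these draws is given below with the median UMIs left on AngII and at steady state. Few UMIs were left for many genes, and single draws differed. Of the 4 classes with *Dnajb1* below 0.5, only other macrophages then kept enough of its UMIs to count it.

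In resident macrophages 1 of 10 members was called, against 14.1% of 7402 genes (8.20% above 2 and 5.90% below 0.5). *Dnajb1* fell from 115 to 42.7 CPM, a ratio of 0.372 (0.266 to 0.517). *Hspa1a* went from 90.9 to 53.9 CPM, a ratio of 0.593 (0.428 to 0.819) that did not reach 2-fold. *Hsph1* was 1.99 (1.18 to 3.51), *Hspe1* 1.52 (1.24 to 1.87) and *Hspa1b* 1.45 (0.861 to 2.51). *Hsp90aa1* was 1.25 (1.08 to 1.46), *Hspa5* 1.23 (1.12 to 1.34) and *Hspa8* 1.18 (1.09 to 1.28), and *Hsp90ab1* and *Hspd1* were both 1.02 with intervals that hold 1. The median log2 ratio of the members was 0.27, against 0.09 over all genes. Thinned to 1000 UMIs, the median *Dnajb1* ratio was 0.433 (9 and 8 UMIs), too few to count it.

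In other macrophages 4 of 10 members were called, against 24.7% of 9683 genes (15.9% above 2 and 8.85% below 0.5), 3 below 0.5 and 1 above 2. *Hspa1a* fell from 208 to 34.1 CPM, a ratio of 0.164 (0.122 to 0.222), the lowest of any member and class. *Dnajb1* fell to 0.331 (0.228 to 0.492) of its steady state level, and *Hspa1b* to 0.454 (0.251 to 0.889). *Hspe1* rose from 121 to 245 CPM, a ratio of 2.02 (1.47 to 2.86). The remaining 6 lay between 0.830 for *Hspd1* and 1.89 for *Hsph1*, and the median log2 ratio was 0.23 against 0.06 over all genes. Thinned to 1000 UMIs, the median ratio was 0.328 (22 and 4 UMIs) for *Dnajb1* and 2.53 (143.5 and 3 UMIs) for *Hspe1*, still past 2-fold though on few UMIs at steady state. It was 0.147 (13 and 5 UMIs) for *Hspa1a* and 0.625 (13 and 1 UMIs) for *Hspa1b*, too few to count, and *Hsph1* kept 21 and 0 UMIs. The calls ended for *Hspa1b* with all deposited barcodes (0.554) and for *Hspe1* with at least 1000 genes per cell (1.95) or without cells with a UMI of *Mki67*, *Top2a* or *Dntt* (1.92). With 30 cells at steady state, 14 of them near a second class, and 0 own markers among the leading genes, this class may not hold the same cells in both libraries. Classes from clusters put 0 and 1620 cells in it.

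In type-2 macrophages 0 of 9 members were called, against 12.4% of 4404 genes (6.70% above 2 and 5.70% below 0.5). *Hspe1* was 1.85 (1.46 to 2.35), *Hspa8* 1.53 (1.37 to 1.71) and *Hspd1* 1.35, the higher end. *Dnajb1*, from 57.1 to 28.7 CPM, and *Hspa1a*, at 0.555 (0.282 to 1.05), were the lower end. *Hspa5* was 0.783 (0.693 to 0.885), below 1, whereas it was above 1 in the other macrophage classes and in T cells. The difference between these ratios was not tested. The median log2 ratio was 0.35 against 0.06 over all genes. Thinned to 1000 UMIs, the median ratio was 2.57 (27 and 4 UMIs) for *Hspe1*, which then passed 2-fold on few UMIs at steady state, and 1.95 (95 and 20 UMIs) for *Hspa8*.

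In B cells 1 of 7 members was called, against 9.80% of 2601 genes (4.08% above 2 and 5.73% below 0.5). *Dnajb1* fell from 74.6 to 24.8 CPM, a ratio of 0.333 (0.127 to 0.789) on 20 and 8 UMIs. *Hspa8* was 1.42 (1.15 to 1.76). The other 5 had intervals that hold 1, from *Hspe1* at 0.851 (0.626 to 1.16) to *Hspa5* at 1.21 (0.913 to 1.60), so a difference was not detectable at this depth. The median log2 ratio was -0.04 against -0.08 over all genes. Thinned to 1000 UMIs, *Dnajb1* kept a median of 2 and 3 UMIs in B cells, too few to compare.

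T cells had the highest share above 2-fold of the 5 classes, among members and also among all genes. Over all genes it was 25.5%, against 4.08% to 15.9% in the other classes. Of 8 members, 4 were called, against 32.2% of 6548 genes (25.5% above 2 and 6.70% below 0.5). *Hspd1* rose from 194 to 472 CPM, a ratio of 2.44 (1.80 to 3.37). *Hsp90aa1* rose from 316 to 755 CPM, a ratio of 2.39 (1.89 to 3.07), and *Hspe1* from 282 to 613 CPM, a ratio of 2.17 (1.69 to 2.84). *Dnajb1* fell to 0.409 (0.239 to 0.718) of its steady state level. *Hsp90ab1*, at 2.0 (1.77 to 2.26), and *Hspa5*, at 1.99 (1.49 to 2.70), lay at the edge without passing it, *Hspa8* was 1.67 (1.45 to 1.94) and *Hsph1* 0.986 (0.548 to 1.90). The median log2 ratio was 0.99 against 0.29 over all genes. With mitochondrial and ribosomal genes left out of the denominator, the median over all genes in T cells moved by -0.12 on the log2 scale. Thinned to 1000 UMIs, the median ratio was 2.19 (95.5 and 9 UMIs) for *Hsp90aa1*, 2.21 (86 and 8 UMIs) for *Hspe1* and 2.03 (63 and 7 UMIs) for *Hspa5*, which then passed 2-fold. It was 1.76 (49 and 6 UMIs) for *Hspd1*, which was no longer called. *Dnajb1* kept 4 and 3 UMIs, too few to count. With 1 marker more required, *Hspe1* was 1.85 and no longer called, and with classes from clusters 0 of 9 members were called. By clusters *Hsp90aa1* was 1.90, *Hspd1* 1.90, *Hspe1* 1.57 and *Dnajb1* 0.649. Gated T cells made up 58.8% of the T cell cluster at steady state and 60.1% and 45.4% of those on AngII. Genes of other cell types were also read more in this class on AngII, with *Cd74*, a gene of antigen-presenting cells, at 16.8 CPM (6.67% of cells) at steady state and 657 CPM (53.0%) on AngII, and *C1qa* at 16.8 and 77.5 CPM. The part of other cells' RNA in the T cell ratios was not tested.

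**Figure D3:**
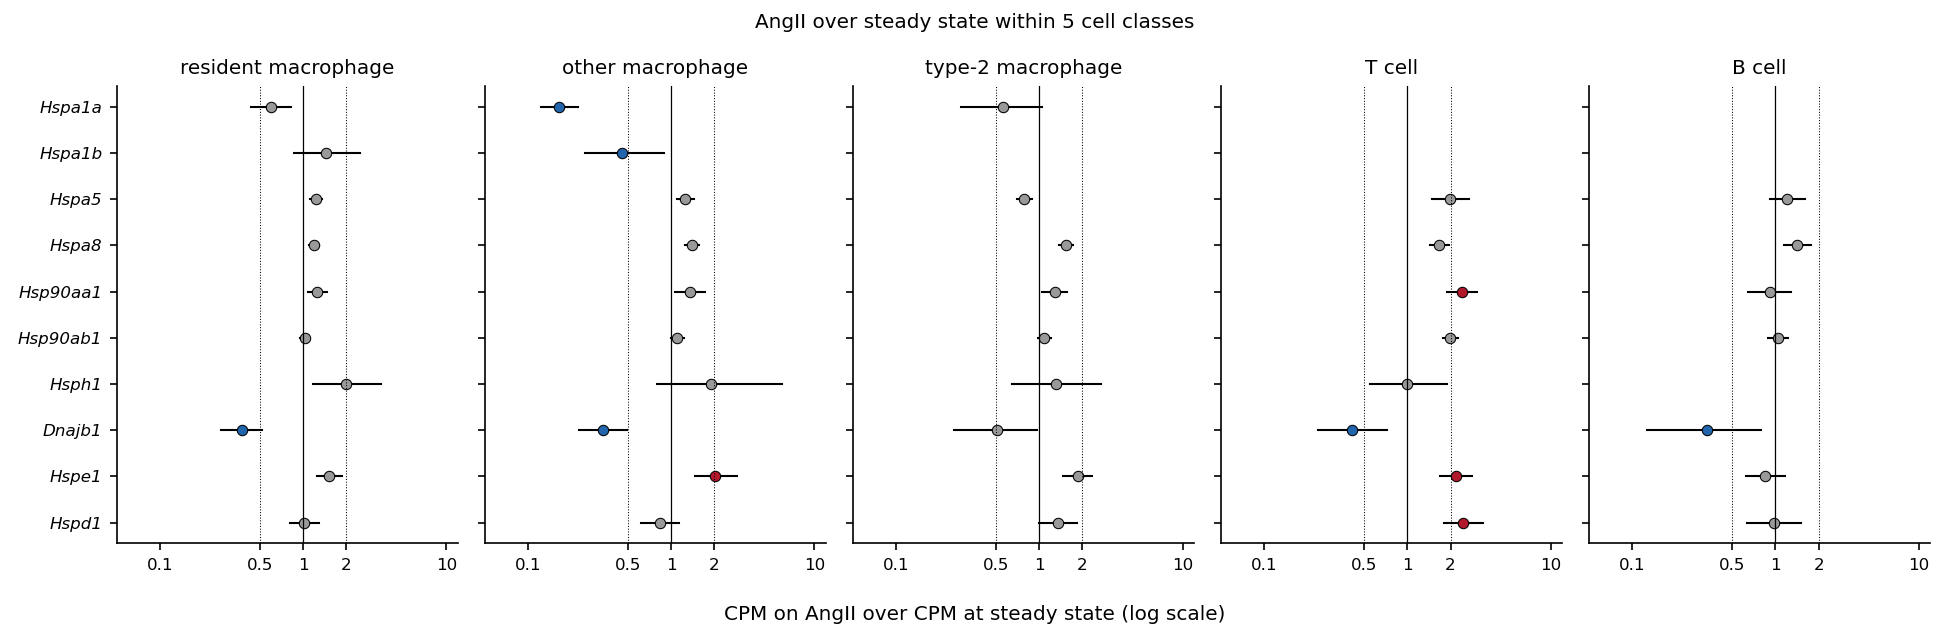
CPM on AngII over CPM at steady state (x axis, log scale) for each gene with at least 20 UMIs in either library (y axis) in 5 cell classes, with lines for exact 95% intervals and dotted lines at 0.5 and 2. Points are red above 2, blue below 0.5 and grey between, and *Dnajb1* is blue in resident macrophages, other macrophages, T cells and B cells.

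The T cells of the libraries differed in cycling and precursor genes. *Mki67* and *Top2a*, made in dividing cells, stood at 4.21 and 21.0 CPM in steady state T cells and at 219 and 240.3 CPM on AngII. *Dntt*, which adds bases to antigen receptor joints in immature lymphocytes, was at 0 UMIs at steady state, with an interval up to 15.5 CPM. On AngII it was at 269 CPM. These 3 genes were chosen after their values were seen. A UMI of any of them was found in 4 of 30 T cells (13.3%) at steady state and 91 of 264 (34.5%) on AngII. On AngII the cells with such a UMI were deeper, with a median of 1661 UMIs against 866.

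Several members were higher in AngII T cells with a UMI of *Mki67*, *Top2a* or *Dntt* than in those without. *Hspd1* stood at 607 (553 to 666) CPM in them and at 206 (163 to 257) CPM in the rest, against 197 (141 to 269) CPM in the corresponding steady state cells. *Hsp90aa1* stood at 922 (855 to 994) CPM with and 428 (365 to 498) CPM without such a UMI, and *Hspe1* at 706 (647 to 768) and 430.2 (367 to 501) CPM. *Hsp90ab1* stood at 2754 and 1663 CPM, and *Hspa8* at 1695 and 969.8 CPM. All 5 were thus higher in the cells with such a UMI. *Hsph1*, at 67.8 (50.5 to 89.1) and 39.1 (21.9 to 64.5) CPM, *Hspa5*, at 449 (403 to 499.8) and 407 (345 to 476) CPM, and *Dnajb1*, at 41.2 (28.0 to 58.5) and 31.3 (16.2 to 54.6) CPM, had overlapping intervals. Without these cells in either library, 1 of 6 members was called between AngII and steady state in T cells in place of 4 of 8. The ratio of *Hspd1* was then 1.04, of *Hspe1* 1.65 and of *Hsp90aa1* 1.64. The 1 member called was *Hspa5*, above 2. *Dnajb1* no longer reached 20 UMIs, with 12 on AngII and 16 at steady state. Its ratio was 0.396, against 0.409 with all T cells. AngII T cells without such a UMI stood below migratory dendritic cells for *Hsp90aa1* (428 against 567 CPM) and *Hsp90ab1* (1663 against 2186 CPM). For *Hspe1* and *Hspd1* their intervals held the levels of type-2 macrophages, 381 and 199 CPM. Levels of the other classes were not split in this way.

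**Figure D4:**
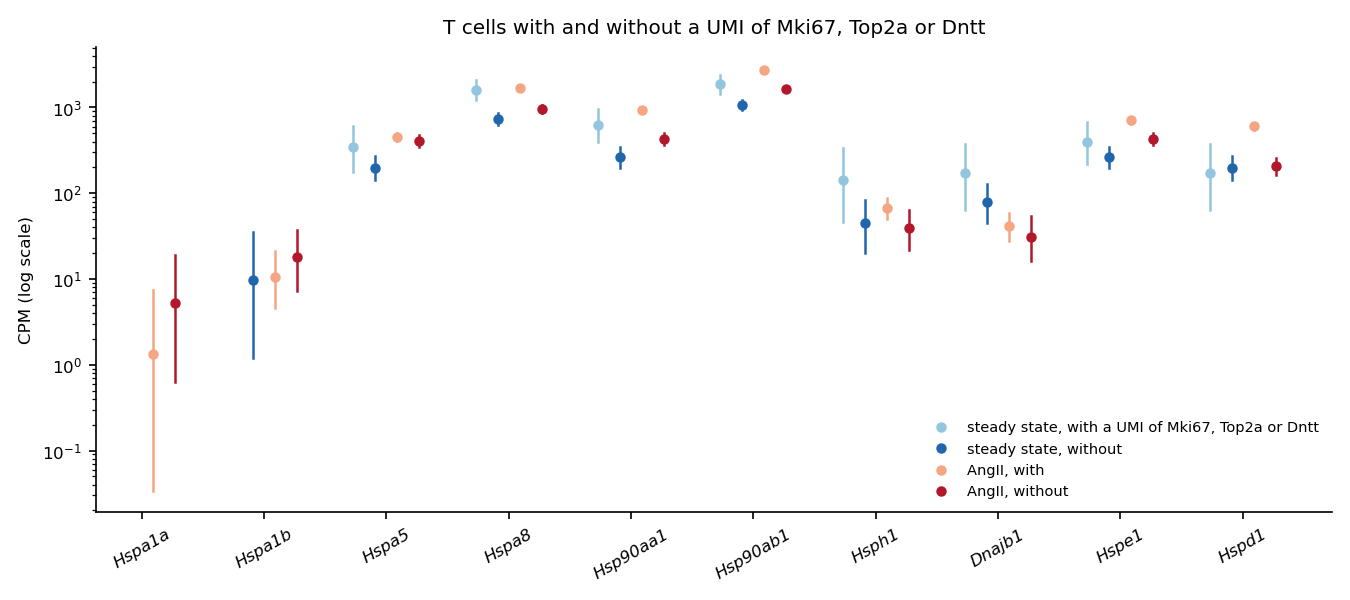
Level of each gene in CPM (y axis, log scale) in T cells with and without a UMI of *Mki67*, *Top2a* or *Dntt* at steady state (4 cells, light blue, and 26 cells, dark blue) and on AngII (91 cells, light red, and 173 cells, dark red), with lines for exact Poisson 95% intervals and no point where no UMI was found. On AngII *Hspd1* stands at 607 CPM with such a UMI and 206 CPM without.

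The share of cells in which a gene is read grows with depth. Shares were therefore taken in 1 draw of 1000 UMIs per cell, and shallower cells were left out (2 and 223 resident macrophages, 0 and 481 other macrophages, 0 and 125 T cells). *Dnajb1* was then read in 9 of 87 cells (10.3%, 4.84% to 18.7%) of resident macrophages at steady state and 9 of 201 cells (4.48%, 2.07% to 8.33%) on AngII. Unthinned, the shares were 41 of 89 (46.1%) and 38 of 424 (8.96%). *Hspa1a* was read in 4 of 30 cells (13.3%, 3.76% to 30.7%) of other macrophages at steady state and 9 of 576 cells (1.56%, 0.717% to 2.95%) on AngII, or unthinned in 15 of 30 (50.0%) and 68 of 1057 (6.43%). These intervals cover counting error within a library only. Cells of 1 library are not replicates of a condition, so no difference between conditions is read from them. In T cells *Hspe1* was read in 4 of 30 cells (13.3%, 3.76% to 30.7%) at steady state and 68 of 139 cells (48.9%, 40.4% to 57.5%) on AngII, or unthinned in 24 of 30 (80.0%) and 152 of 264 (57.6%). Over the 200 draws the median at steady state and on AngII was 7 of 87 and 8 of 201 cells for *Dnajb1* in resident macrophages, 4 of 30 and 12 of 576 cells for *Hspa1a* in other macrophages and 7 of 30 and 61 of 139 cells for *Hspe1* in T cells.

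Immediate early genes, transcription factors and feedback genes that like the inducible heat shock genes respond quickly when cells are handled, had median ratios below 1 in the macrophage classes. Of 18 such genes, 4 were below 0.5 in resident macrophages, 8 in other macrophages and 3 in type-2 macrophages, against 5.90%, 8.85% and 5.70% of all genes. Above 2 were 0, 0 and 1. Their median log2 ratio was -0.60, -0.98 and -0.56, against 0.09, 0.06 and 0.06 over all genes. *Atf3*, a stress-responsive factor, fell from 1184 to 289 CPM in resident macrophages, a ratio of 0.244 (0.217 to 0.274), and was 0.245 (0.220 to 0.274) in other macrophages. *Jun* was 0.276 (0.255 to 0.298) in resident and 0.289 (0.266 to 0.314) in other macrophages, and *Klf4* 0.415 (0.383 to 0.450) and 0.325 (0.290 to 0.365). *Jun* was below 0.5 in the other classes too, at 0.308 in type-2 macrophages, 0.332 (0.249 to 0.445) in T cells and 0.489 (0.301 to 0.783) in B cells. *Atf3* was 0.432 in type-2 macrophages and 0.732 (0.286 to 2.22) in T cells, and was not counted in B cells. *Klf4* was 0.701, 2.51 (0.793 to 12.7) and 0.654 (0.356 to 1.18) in these 3 classes. Summed, the 18 genes went from 26018 to 16439.5 CPM in resident macrophages, from 30259 to 14527 CPM in other macrophages and from 21318 to 13877 CPM in type-2 macrophages, with *Fos* the most abundant in all 3. In T cells 5 of 18 were below 0.5 and 3 above 2, against 6.70% and 25.5% of all genes, and the sum went from 6354 to 3434 CPM. In B cells 16 were counted, 2 below 0.5 and 3 above 2, against 5.73% and 4.08% of all genes, and the sum was 6636 and 6283.5 CPM. The part of these genes' differences in the *Dnajb1* and *Hspa1a* ratios was not tested, and preparation of the cells cannot be told apart from treatment here.

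Further chaperone lists were counted in the same way. Their T cell values were not recomputed without cells with a UMI of *Mki67*, *Top2a* or *Dntt*, nor with classes from clusters. Both settings lowered the count of members called in T cells. The part of the mix of T cells in the values of these lists was not tested. Over all genes, 8.20% were above 2 in resident macrophages, 15.9% in other macrophages, 6.70% in type-2 macrophages and 25.5% in T cells. The cytosolic chaperonin TRiC and prefoldin, which fold actin and tubulin, had 0 of 14 genes past 2-fold in resident macrophages, 1 above 2 in other and in type-2 macrophages, 5 above 2 in T cells and 0 of 13 in B cells. Their median log2 ratio was 0.84 in T cells, against 0.29 over all genes, and between 0.22 and 0.29 in the macrophage classes. *Cct8* rose to 2.41 (1.62 to 3.72) and *Cct3* to 2.24 (1.46 to 3.60) in T cells, and in resident macrophages they were 1.79 and 1.5. *Pfdn4* was 2.28 (1.15 to 5.13) in T cells and 1.52 in resident macrophages. Of 9 other mitochondrial chaperones and proteases counted in T cells, 6 were above 2, among them *Hspa9*, the mitochondrial HSP70, at 2.18 (1.26 to 4.09), and the median log2 ratio was 1.13. In resident macrophages 1 of 10 was above 2, and it was *Hspa9* at 2.01 (1.47 to 2.80). *Grpel2* and *Clpp* were 1.74 (0.802 to 4.08) and 0.701 (0.406 to 1.21) there.

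In the endoplasmic reticulum the co-chaperones went different ways. *Dnajb9*, a J-protein of BiP, fell from 113 to 50.9 CPM in resident macrophages, a ratio of 0.452 (0.329 to 0.618), and was 0.254 (0.184 to 0.355) in other macrophages and 0.488 (0.240 to 1.05) in T cells. *Hyou1*, the HSP110 of this compartment, was 1.99 (1.23 to 3.33) and 2.0 (0.901 to 5.54) in resident and other macrophages, in the latter on 6 UMIs at steady state. It was 0.780 (0.421 to 1.42) in type-2 macrophages and 2.30 (0.722 to 11.7) in T cells, there on 3 UMIs at steady state. *Manf* was 1.84 (1.47 to 2.30) in resident and 1.96 (1.44 to 2.73) in other macrophages. Of 17 such genes, 1 was below 0.5 in resident macrophages (5.90% of all genes), and 2 were above 2 and 2 below 0.5 in other macrophages (15.9% and 8.85%). In T cells 5 of 16 were above 2 and 1 below 0.5, against 25.5% and 6.70% of all genes. Among 11 genes of the unfolded protein response, 0 were called in resident macrophages, where *Edem1*, which sends misfolded proteins to degradation, was 1.88 (1.40 to 2.57), *Xbp1* 1.75 (1.44 to 2.13) and *Herpud1* 0.731 (0.564 to 0.947). In other macrophages 1 was above 2 and 3 below 0.5, against 15.9% and 8.85% of all genes, with *Edem1* at 2.04 (1.24 to 3.60) and *Herpud1* at 0.330 (0.255 to 0.432). In T cells 2 of 9 were above 2, against 25.5% of all genes. *Edem1* was 4.03 (1.91 to 10.2) there and *Herpud1* 1.37 (0.617 to 3.61). In type-2 macrophages 1 of 7 was below 0.5, against 5.70% of all genes. It was *Herpud1* at 0.416 (0.248 to 0.678), with *Edem1* at 0.916 (0.619 to 1.35). In B cells 0 of 5 were called.

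The partners of cytosolic HSP70 and HSP90 were mostly within 2-fold. Of 16 co-chaperones counted in resident macrophages 1 was called, against 14.1% of all genes. It was *Hspbp1*, a nucleotide exchange factor, at 2.04 (1.0 to 4.51), beside *Bag5* at 0.504 (0.311 to 0.809) and *Stip1*, which hands clients from HSP70 to HSP90, at 1.93 (1.32 to 2.88). In T cells 5 of 16 were above 2, against 25.5% of all genes, with a median log2 ratio of 0.75. Of 17 in other macrophages, 12 in type-2 macrophages and 9 in B cells, 1 each was below 0.5. Over all genes, 8.85%, 5.70% and 5.73% were below 0.5 in these classes. The median log2 ratio in B cells was -0.42, against -0.08 over all genes. Of 11 other HSP70, HSP110 and J-protein genes 0 were called in resident macrophages, against 14.1% of all genes, with *Dnajb4*, a relative of *Dnajb1*, at 0.562 (0.340 to 0.921), *Dnaja2* at 1.33 (1.04 to 1.71) and *Hspa4l* at 0.765 (0.518 to 1.13). In other macrophages 1 of 13 was above 2 and 1 below 0.5, against 15.9% and 8.85% of all genes. In T cells 2 of 9 were above 2, against 25.5% of all genes. The heat shock factors themselves were sparse. *Hsf1* was read at 12.4 CPM at steady state and 15.0 CPM on AngII in resident macrophages, a ratio of 1.21 (0.563 to 2.71), *Hsf2* was 0.696 (0.381 to 1.27), and *Hsbp1*, whose product binds HSF1, was 1.10 (0.901 to 1.35). *Hsf1* and *Hsf2* did not reach 20 UMIs in type-2 macrophages and B cells, nor *Hsf2* in T cells, and they were not called where counted.

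Within a library, each class was set against all other cells of that library with the same 2-fold call. At steady state in T cells 3 of 10 members were below 0.5, against a background over all genes of 43.2%, 11.5% above and 31.8% below. In B cells it was also 3 of 10 (42.2%, 11.4% above and 30.7% below), namely *Hspa1a*, *Hspa1b* and *Hspa5* in both. *Hspa5* was 0.305 (0.227 to 0.402) in T cells and 0.466 (0.373 to 0.576) in B cells, and *Hspa1a* had no UMI in either. The shares of members below 0.5 were thus close to those of all genes. The other macrophages had 2 of 10 called (25.4%, 5.74% above and 19.7% below), with *Hspa1a* 2.93 (2.20 to 3.86) above and *Hsph1* 0.456 (0.145 to 1.10) below on 5 UMIs. Resident macrophages had 1 (23.7%, 9.88% above and 13.8% below), *Hspa1b* at 0.445 (0.273 to 0.695), and type-2 macrophages 1 (25.5%, 3.56% above and 21.9% below), *Hspa1b* at 0.290 (0.123 to 0.585). Thinned to 1000 UMIs, with UMIs of the class and of the other cells, the median ratio of *Hspa5* was 0.532 (15 and 165 UMIs) in B cells, no longer called, and 0.347 (7 and 174 UMIs) in T cells. *Hspa1a* still had no UMI in T and B cells, against a median of 21 in the other cells. The remaining calls kept too few UMIs to count. *Hspa5* in type-2 macrophages then passed 2-fold at 2.07 (23 and 158 UMIs), as did *Hspe1* in other macrophages at 0.451 (3 and 57 UMIs). The mean of single cells ended the calls of *Hspa1b* in resident macrophages (0.653) and *Hspa5* in B cells (0.513).

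On AngII neutrophils had the most members called. In these short-lived cells 8 of 10 were below 0.5, against 52.6%, 13.4% above and 39.1% below over all genes, and the median log2 ratio was -2.10 against -0.48. *Hsp90ab1* was 0.177 (0.141 to 0.219), *Hspa8* 0.251 (0.211 to 0.296), *Hspe1* 0.229 (0.147 to 0.342) and *Hspd1* 0.147 (0.0634 to 0.290). *Hspa5* was 0.452 (0.376 to 0.539), and *Hspa1a*, *Hspa1b* and *Hsph1* rested on 1 to 3 UMIs. The 2 members not called were *Hsp90aa1*, at 0.563 (0.441 to 0.708), and *Dnajb1*, at 1.31 (0.742 to 2.14). Neutrophils were not shallow, with a median of 3314.5 UMIs against 1092 over all cells, and their immediate early genes summed to 37327.5 CPM, the highest of the 12 classes. With the mean of single cells, *Hspa5* was 0.589 and no longer called.

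T cells on AngII had 4 of 10 called (46.1%, 20.3% above and 25.7% below), 3 above and 1 below. *Hspd1* was 3.58 (3.25 to 3.94), *Hspe1* 2.24 (2.07 to 2.43) and *Hsp90aa1* 2.17 (2.02 to 2.34), and *Hspa1a* was 0.0956 (0.0196 to 0.281). Without the T cells with a UMI of *Mki67*, *Top2a* or *Dntt*, 1 was called, and *Hspd1* was 1.56, *Hspe1* 1.57 and *Hsp90aa1* 1.23. B cells had 2 of 10 called (50.7%, 13.9% above and 36.8% below), *Hspa8* at 0.477 (0.419 to 0.541) and *Hspa1a* on 1 UMI. When thinned, *Hspa8* in B cells had a median ratio of 0.505 (38 and 3145 UMIs) and *Hspa1b* a median of 0 UMIs there, and *Hspa8* was 0.618 with the mean of single cells. Migratory dendritic cells had 4 of 10 below 0.5 (56.8%, 10.9% above and 46.0% below), led by *Hspa5* at 0.221 (0.158 to 0.301). The other 3 were *Hspa1a*, *Hspa1b* and *Hsph1* on 1 or 2 UMIs each, and *Hspa1a* was 3.84 with the mean of single cells.

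Macrophages, monocytes and the remaining dendritic cells on AngII had 0 or 1 member called. Resident macrophages had 1 of 10 called (21.5%, 7.22% above and 14.2% below), *Hspa1a* at 2.27 (1.74 to 2.92), which had a median of 2.53 (10.5 and 43 UMIs) when thinned to 1000 UMIs and was 1.86 without the cell with the most UMIs. Other macrophages had 0 (14.3%, 2.55% above and 11.7% below), classical monocytes 0 (16.7%, 1.70% above and 15.0% below) and type-2 dendritic cells 0 (23.6%, 4.32% above and 19.3% below). Type-2 macrophages had 1 (29.1%, 4.55% above and 24.6% below) and reparative macrophages 1 (24.7%, 4.58% above and 20.2% below), both *Hspa1b*, at 0.446 (0.144 to 1.05) and 0.440 (0.189 to 0.876), on 5 and 8 UMIs. When thinned, a median of 1 UMI of *Hspa1b* was left in each, too few to read, and in type-2 macrophages *Hspd1* then passed 2-fold at 2.41 (16 and 315 UMIs). With 1 marker more required, *Hspa1b* in reparative macrophages was 0.623. Nonclassical monocytes had 1 (38.6%, 9.50% above and 29.1% below), *Hspa1b* at 3.44 (1.95 to 5.66), and 0.887 without the cell that held 12 of its 16 UMIs, and 1.85 with the mean of single cells. Thinned, it was 2.65 (2 and 49 UMIs), while *Hspa1a* and *Hsph1*, at medians of 0 and 0.5 UMIs, were too few to read. Type-1 dendritic cells had 1 (32.4%, 5.96% above and 26.4% below), *Hspa1a* at 0.482 (0.308 to 0.721), and 0.0974 without its top cell, a median of 1.02 (4 and 50 UMIs) when thinned and 0.632 with the mean of single cells.

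The study used eYFP to tell resident macrophages of erythro-myeloid progenitor origin from others, so the members were compared between *Yfp*+ and *Yfp*- resident macrophages. Most chaperones lay within 2-fold of each other by this mark. At steady state 68 cells held an eYFP UMI and 21 did not, and 1 of 9 members was called, against 20.8% of 5756 genes. It was *Hspa1b*, at 2.70 (0.437 to 112) on 22 and 1 UMIs, an interval that holds 1. *Hsp90ab1* was 1.36 (1.10 to 1.70) and *Hspa5* 0.753 (0.613 to 0.933). On AngII 79 cells held an eYFP UMI and 345 did not, and 1 of 10 members was called, against 4.24% of 5537 genes. *Dnajb1* stood at 59.3 CPM in *Yfp*+ and 29.5 CPM in *Yfp*- cells, a ratio of 2.01 (1.14 to 3.59), *Hspd1* was 1.52 (1.12 to 2.05), *Hsp90aa1* 1.34 (1.11 to 1.62) and *Hspa1a* 0.630 (0.369 to 1.05). *Yfp*+ cells were deeper, with median UMIs of 11040.5 against 4460 at steady state and 3666 against 836 on AngII, so a missing eYFP UMI does not show a cell without the mark. The *Dnajb1* ratio was 1.89 with at least 2 eYFP UMIs and had a median of 2.63 (5 and 4 UMIs) when thinned after the call, too few to count it.

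Over the 17 class and library pairs, the members formed a loose group and separate genes. As a description across classes that share libraries, Pearson's r of log2(CPM + 10) was 0.83 between *Hsp90ab1* and *Hspd1*, 0.81 between *Hsp90ab1* and *Hspe1*, 0.78 between *Hspe1* and *Hspd1* and 0.73 between the HSP90 genes. *Hspa1a* and *Hspa1b* had r = 0.70, and *Hspa1a* and *Hspa5* 0.71. *Dnajb1* ran from -0.44 with *Hspa8* to 0.26 with *Hspa1a*. *Hsph1* had -0.29 with *Hspa1a*, -0.04 with *Hspa1b* and -0.22 with *Dnajb1*. With the other members *Hsph1* had positive values, 0.63 with *Hspe1*, 0.61 with *Hspd1* and 0.41 with *Hsp90ab1*. They were 0.36 with *Hspa8*, 0.29 with *Hsp90aa1* and 0.19 with *Hspa5*. Among 2958 genes with at least 200 UMIs in each library, the nearest to *Hspe1* were *Cct3* (0.94), *Tcp1* (0.92) and *Eef1g* (0.88), and the nearest to *Hspd1* were *Anapc5* (0.91), *Tcp1* (0.88) and *Chordc1* (0.88). *Cct4* (0.93), *Slc25a3* (0.90) and *Slc25a4* (0.89) were nearest to *Hsp90ab1*, and *Psmd11* (0.88), *Cct5* (0.87) and *Psmb7* (0.86) to *Hsp90aa1*. TRiC subunits were thus among the nearest genes of all 4. On AngII, T cells were the highest class and neutrophils the lowest for each of these 4 members. No r is given without these classes. *Hspa1a* was nearest to *Abca9* (0.94), *Ptpro* (0.94) and *Hpgd* (0.93), *Hspa1b* to *Rap1a* (0.85), *Atp2c1* (0.75) and *Cx3cr1* (0.75), and *Hsph1* to *Churc1*, *Ssrp1* and *Krtcap2* (all 0.83), the last 2 members themselves having fewer than 200 UMIs at steady state. The highest *Hspa1b* level of the 17, 70.4 CPM in AngII nonclassical monocytes, came mostly from a single cell, as given above. No r is given without that cell. *Hspa5* was nearest to *Aph1a* (0.93), *Lmna* (0.93) and *Daglb* (0.92), *Hspa8* to *Prdx2* (0.94), *Pdia3* (0.92) and *Ssr4* (0.91), and *Dnajb1* to *Gm42826* (0.87), *Rasa1* (0.87) and *Nr3c1* (0.84).

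The members also differ in the sequence before their starts. RefSeq promoters on GRCm38.p6 were at hand for 7 of the 10 members (10 entries), and the 250 bases before each start were searched on both strands. Heat shock factor 1 binds arrays of short units around GAA, so the pairs GAANNTTC and TTCNNGAA were searched, along with the triples GAANNTTCNNGAA and TTCNNGAANNTTC, which contain the pairs. Of 32851 promoters of that length, 12.8% hold a pair and 0.466% a triple. A pair was found before 5 members, *Hspa1a*, *Hspa1b*, *Hsph1*, *Hspe1* and *Hspd1*, and a triple before *Hspe1* and *Hspd1*. *Hspd1* has 2 entries, and 1 of them holds neither a pair nor a triple. The endoplasmic reticulum stress element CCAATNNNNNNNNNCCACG, held by 0.113% of promoters, was found before *Hspa5*. None of these letters was found before *Dnajb1*. *Hspa8*, *Hsp90aa1* and *Hsp90ab1* had no entry. *Hspe1* and *Hspd1* lie head to head, their annotated ends overlapping by 112 bases, and share 1 stretch (chr1:55088053-55088082), shown on the strand of each gene with the overlapping triples in capitals. The other lines show the pair before *Hspa1a* (chr17:34972242-34972271, minus strand) and *Hsph1* (chr5:149636351-149636380, minus strand) and the stress element before *Hspa5* (chr2:34772019-34772048, plus strand), each in capitals.
Hspe1: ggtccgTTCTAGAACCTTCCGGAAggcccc
Hspd1: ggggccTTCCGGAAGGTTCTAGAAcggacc
Hspa1a: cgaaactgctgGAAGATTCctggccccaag
Hsph1: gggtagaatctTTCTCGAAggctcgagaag
Hspa5: acttcaCCAATCGGAGGCCTCCACGacggg
The 30 bases shown for *Hspa1a* are the same before *Hspa1b*. The 250 bases before these genes differ at 3 positions (98.8% identical), and the genes lie 9951 bases apart. Starts are those of RefSeq, and the stretches of *Hspa5*, *Hspd1* and *Hsph1* lie wholly or in part within the gene as annotated by GENCODE. A match is a description, not a site or a cause, and a missing match says only that these letters are not in the window. The pair *Hspe1* and *Hspd1*, with 1 shared stretch, were both above 2-fold in T cells on AngII, whereas in other macrophages *Hspe1* was 2.02 and *Hspd1* 0.830. Without T cells with a UMI of *Mki67*, *Top2a* or *Dntt* they were 1.65 and 1.04, and as medians of thinned draws 2.21 and 1.76.

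UMIs were counted at 3′ ends, so the last 400 bases of each gene were checked for stretches shared with other genes. For 8 of the 10 members, 0 of 310 windows of 91 bases, the length of the cDNA read, occurred in another annotated gene, so *Hspa1a* and *Hspa1b* can be told apart at their ends. For *Hspa8*, 73.2% of windows were shared with 7 other genes, which held 18 and 103 UMIs against 4095 and 31408 for *Hspa8* itself before the cell filter. For *Hspe1*, 37.7% were shared with 1 gene that is not among the features. Reads that fit more than 1 gene are not counted, and their number is not in the deposited counts.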

How the data were processed

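Single-cell gene expression was measured in 2 droplet libraries of CD45+ adventitial cells, 1 at steady state (3 animals pooled) and 1 after 10 days of AngII (2 animals pooled). The values are UMI counts, which the authors made with Cell Ranger 3.1.0 on GRCm38.p6 with GENCODE M24 and deposited as 1 matrix per library, unnormalized. The deposited matrices were filtered as the study states, to 300 to 6500 genes and at most 5% mitochondrial UMIs. Median depth of kept cells was 9105 and 1092 UMIs.

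Cells were scored on marker lists and given the class of highest score, with at least 2 markers read and a score of at least 0.25, and called mixed when a second lineage reached 0.5 of the winner. Members and lists were chosen with earlier results of these data known, and the scoring of the gate was settled after seeing the data. UMIs of each gene were summed per class and given as CPM with exact Poisson intervals. Ratios have exact conditional binomial intervals and shares have Clopper-Pearson intervals, all at 95%, and all cover counting error only. A gene was counted from 20 UMIs and called past 2-fold, in classes with at least 20 cells. With 1 library per condition no test over animals was possible. As an example of precision, the 20 UMIs of *Hsph1* in steady state resident macrophages gave 20.7 CPM (12.6 to 31.9). Each class was compared between libraries and with the other cells of its library, and *Yfp*+ (at least 1 eYFP UMI) with *Yfp*- resident macrophages.

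Genes named besides the 10 members follow 1 rule: of each of 8 pathway lists, the 3 genes with the largest ratio either way in resident macrophages among those with at least 20 UMIs. Nearest genes were the 3 with the highest Pearson's r of log2(CPM + 10) over 17 class levels among genes with at least 200 UMIs in each library. *Mki67*, *Top2a* and *Dntt*, the leading genes of classes, and the marker genes read in other classes were named after their values were seen. Alternatives changed the filter, depth (thinned to 1000 UMIs in 1 draw or, added after seeing the data, as the median of 200 draws), gate, classes (clusters after SCTransform), scaling, summary, fold and minimum. Gene coordinates came from GENCODE M21, as M24 was not at hand, and promoters from a RefSeq table on GRCm38.p6.

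Tables were computed in Python 3.11.15 with pandas 2.3.3, SciPy 1.17.1 and NumPy 2.4.6, figures with Matplotlib 3.10.9, and clusters in R 4.3.3 with sctransform 0.4.2 and Seurat 5.3.0. The code was tested on simulated data. Mixed and unassigned cells were left out of class levels but kept among the other cells of a library, and no doublet caller was run.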

Additional observations from a re-analysis of the deposited data

Results flagged for a closer look

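The ratio of *Hspa5* between AngII and steady state ran in different directions between classes. It was 1.23 in resident macrophages, 1.25 in other macrophages and 1.99 in T cells, and 0.783 in type-2 macrophages, each with an interval that does not hold 1. None of the 4 ratios was past 2-fold, though that of T cells lay at the edge and was 2.03 as the median of 200 draws of 1000 UMIs per cell, on 63 and 7 UMIs, and above 2 without cells with a UMI of *Mki67*, *Top2a* or *Dntt*. The difference between the classes was not tested, since each condition had 1 library.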

How the results depend on the processing

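Alternatives were compared with the values given above, as members called past 2-fold or as ratios. A count was the same when equal or within 1.5-fold, and a ratio, level or sum when within the interval of the value above. Of 56 alternatives for member counts between AngII and steady state, 36 gave the same and 20 moved, and of 398 for single genes 346 gave the same, 52 moved and 0 reversed. For classes against other cells 59 of 84 counts and 603 of 840 genes gave the same, and 4 genes reversed. For *Yfp* it was 2 of 6 and 34 of 53, and for levels 16 of 17 sums and 166 of 170 genes. Between AngII and steady state, resident macrophages (1 member called) had 2 with all deposited barcodes, 2 without cells with a UMI of *Mki67*, *Top2a* or *Dntt*, 2 with the mean of single cells, 2 without the cell with the most UMIs and 4 at a fold of 1.5. Other macrophages (4) had 2 when thinned to 1000 UMIs in 1 draw, as meant by thinned below. Type-2 macrophages (0) had 1 with at least 1000 genes per cell, 2 when thinned, 3 with classes from clusters, 5 with the mean of single cells, 1 without the top cell and 4 at a fold of 1.5. T cells (4) had 0 with classes from clusters, 1 without cells with a UMI of *Mki67*, *Top2a* or *Dntt*, and 7 at a fold of 1.5. B cells (1) had 0 without the top cell, where *Dnajb1* was 0.339 and no longer reached the UMI minimum, and 0 with a minimum of 50 UMIs. Against other cells at steady state, type-2 macrophages (1) had 2 with the mean of single cells and 2 without the top cell, and B cells (3) had 1 when thinned. On AngII, thinning gave 0 in resident macrophages (1), 2 in type-2 macrophages (1), 0 in reparative macrophages (1), 3 in nonclassical monocytes (1), 0 in type-1 dendritic cells (1) and 1 in type-2 dendritic cells (0). Leaving out the top cell gave 0 in resident macrophages, 2 in reparative macrophages, 0 in nonclassical monocytes and 2 in type-1 dendritic cells. The mean of single cells gave 2 in type-2 macrophages, 0 in type-1 dendritic cells and 1 in B cells (2). With 1 marker more, reparative macrophages had 0 and B cells 4, and without cells with a UMI of *Mki67*, *Top2a* or *Dntt*, T cells (4) had 1. Reversed were *Hspa1b* in resident macrophages at steady state when thinned (2.48; 0.621 as the median of 200 draws), *Hspa1b* in AngII nonclassical monocytes without the top cell (0.887), which held most of its UMIs, and *Hspa1a* in AngII migratory dendritic cells with the mean of single cells (3.84). Thinning after the call left 0 members called between *Yfp*+ and *Yfp*- cells at steady state (1) and 0 on AngII (1). Medians of 200 thinned draws, added after seeing the data, gave between libraries 0 in resident macrophages, 1 in type-2 macrophages and 0 in B cells. Against other cells they gave 0 in resident macrophages, 1 in other macrophages (2) and 1 in B cells at steady state. On AngII they gave 0 in reparative macrophages, 3 in nonclassical monocytes and 0 in type-1 dendritic cells, and for *Yfp* 0 and 0. Reversed was *Hspa1a* in AngII type-1 dendritic cells (1.02). Thinned values rest on few UMIs, and single draws differed from the medians. The summed level in AngII other macrophages was 4492 CPM with all deposited barcodes. A larger or smaller fold moves a count by construction, and the cause of the other moves was not tested. The alternative without *Mki67*, *Top2a* or *Dntt* was chosen after seeing the data. No value was given where a class fell under 20 cells, which was so with classes from clusters for resident macrophages (123 and 0 cells) and other macrophages (0 and 1620). It was also so for type-2 macrophages between libraries with 1 marker more (18 and 57) and without *Mki67*, *Top2a* or *Dntt* (16 and 57), for steady state type-2 macrophages against other cells with 1 marker more (18), and for thinned AngII migratory dendritic cells (17).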
